A study of Mus musculus with 22 samples.

Results

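Of the 151494 barcodes that passed the filter in the 11 hashtagged tissue libraries of this series, 420 met a rule for kidney intercalated cells, and these 420 barcodes are described here. A barcode passed the filter with at least 200 detected genes and mitochondrial UMIs of at most 60% (a UMI, or unique molecular identifier, counts a captured RNA molecule). A member then had at least 1 UMI in at least 2 of the 6 genes Atp6v1g3, Atp6v0d2, Foxi1, Slc4a9, Slc26a4 and Aqp6, with Atp6v1g3 or Foxi1 among them. It also had 0 UMIs of Ptprc, Umod, Slc12a3, Cst8 and Spink8, which mark leukocytes, the loop of Henle, the distal tubule and the epididymis. Before the filter the tissue libraries held 176676 barcodes, and the whole series of 22 libraries held 179929.

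The mice carried Prom1-CreERT2, a tamoxifen-inducible recombinase driven by the Prom1 gene, together with Rosa26ZSG, a green lineage reporter that recombined cells switch on. The wt, het and null groups differed in Nalcn, which encodes a sodium leak channel: het mice carried 1 and null mice 2 alleles that the recombinase deletes, so that deletion is expected only in the Prom1 lineage. Each tissue library pooled kidney, liver, lung and stomach with epididymis in males or uterus in females. The study compared the genotypes to learn whether loss of Nalcn changes the shedding of cells from solid organs, and it also sequenced 11 blood libraries: green cells from 2 wt (male, 571 and 608 days), 4 het (3 male, 551 to 610 days; 1 female, 649 days) and 4 null samples (1 male, 552 days; 3 female, 551 to 613 days), and mononuclear cells from 1 wt male of 120 days. The wt group held 5 libraries (wt 1 and wt 2, male, 571 days of age; wt 3, male, 608 days; wt 4, female, 611 days; wt 5, female, 654 days), the het group 2 (het 1 and het 2, male, 551 days) and the null group 2 (null 2, male, 552 days; null 3, labelled female, 611 days). For a male library of 610 days and a female library of 647 days the labels give conflicting genotypes, so they enter no genotype comparison and are called the unassigned male and the unassigned female. The hashtag counts that tie a barcode to its organ were not used here, so the organ of each member is unknown.

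Intercalated cells of the kidney collecting duct secrete acid or base with a vacuolar proton pump, the V-ATPase, whose membrane sector V0 and cytosolic sector V1 are assembled from many subunits. Type A cells place the pump on the urine side and return bicarbonate to the blood through the exchanger Slc4a1, whereas type B cells secrete bicarbonate through Slc26a4 (pendrin). Foxi1 is a forkhead transcription factor needed to form these cells and to express their pump subunits. Pump-rich cells that depend on Foxi1 are also known in the epididymis, the inner ear and the airway, and the epididymis was in the male pools.

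The start regions of 4 genes are shown because their genes separate or unite the members described below: Atp6v1b1 and Atp6v1c2 encode pump subunits found in members of every kind, Aqp6 encodes a water and anion channel of type A cells, and Clcn5 encodes a chloride-proton exchanger of endosomes. The sequences are from RefSeq on build GRCm38.p6, run from 250 bases before to 50 bases after the annotated start in the direction of the gene, and are written 5′ to 3′ with any match to the forkhead core TGTTTA, or to its reverse complement TAAACA, in capitals. Of 16 genes looked up, 12 had an entry. The Atp6v1b1 region lies at chr6:83742767-83743066 (+ strand), Atp6v1c2 at chr12:17324681-17324980 (- strand), Aqp6 at chr15:99600950-99601249 (+ strand) and Clcn5 at chrX:7319309-7319608 (- strand).
Atp6v1b1: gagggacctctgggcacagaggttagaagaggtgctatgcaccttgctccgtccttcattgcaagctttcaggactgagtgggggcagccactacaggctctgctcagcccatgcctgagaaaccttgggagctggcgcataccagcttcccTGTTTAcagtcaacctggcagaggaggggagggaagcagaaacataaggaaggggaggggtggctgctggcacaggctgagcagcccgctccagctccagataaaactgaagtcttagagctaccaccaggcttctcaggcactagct
Atp6v1c2: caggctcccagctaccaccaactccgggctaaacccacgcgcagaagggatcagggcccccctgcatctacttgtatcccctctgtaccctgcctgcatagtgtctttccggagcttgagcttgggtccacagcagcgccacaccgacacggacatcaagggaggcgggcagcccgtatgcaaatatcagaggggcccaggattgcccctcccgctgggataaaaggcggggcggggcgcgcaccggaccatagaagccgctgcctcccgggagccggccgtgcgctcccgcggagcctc
Aqp6: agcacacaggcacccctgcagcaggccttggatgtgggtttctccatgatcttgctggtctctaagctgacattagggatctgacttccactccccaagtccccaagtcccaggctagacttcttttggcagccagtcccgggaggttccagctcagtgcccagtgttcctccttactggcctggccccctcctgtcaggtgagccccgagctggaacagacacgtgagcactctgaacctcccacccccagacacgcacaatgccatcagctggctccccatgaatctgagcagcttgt
Clcn5: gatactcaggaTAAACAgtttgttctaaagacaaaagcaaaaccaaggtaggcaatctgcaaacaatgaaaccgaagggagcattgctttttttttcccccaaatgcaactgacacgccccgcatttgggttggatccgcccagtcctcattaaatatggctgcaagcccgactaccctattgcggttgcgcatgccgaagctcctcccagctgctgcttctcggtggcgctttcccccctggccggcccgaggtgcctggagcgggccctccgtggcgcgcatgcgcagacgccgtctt
Atp6v1b1 held the core at position -98 from the start and this Clcn5 start held it at -239. In all, 3 of the 13 entries looked up held a match, 2 of them at separate starts of Clcn5, beside 13.4% of all 32851 mouse start regions of the same length. A match describes these letters only, and no match says nothing about binding elsewhere.

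Several libraries stood apart before any result. The library wt 5 had 996 barcodes past the filter, against 6462 to 24928 in the other 10. The library null 3 is labelled female, yet 5.44% of its barcodes past the filter held a transcript of the Y chromosome and 61.4% held Xist, the RNA of the inactive X. The other 3 female-labelled libraries had Y transcripts in at most 0.0171% of barcodes, and the male-labelled ones had them in 20.03% to 53.9% with Xist in at most 0.0774%. In null 3 both kinds of barcode were present: 718 held Y transcripts alone, 10916 held Xist alone and 274 held both. What placed Y transcripts in null 3 was not tested, and the values of null 2 and null 3 are given separately where a result rests on them. No barcode of a member occurred as a member in a second library. Members had a median of 2123.5 UMIs and 1049.5 detected genes, and their median mitochondrial share was 20.6%. By the score of the doublet caller Scrublet, 55 of them (13.1%) were marked as doublets. How many barcodes were marked in a library was set by an assumed rate that rises with its number of barcodes.

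Members were found in 10 of the 11 libraries, and their number varied widely between libraries. Among wt libraries there were 24 in wt 1, 55 in wt 2, 98 in wt 3, 15 in wt 4 and 0 in wt 5. The het libraries held 19 and 23, the null libraries 67 and 55, and the unassigned male and female held 45 and 19. Per 10000 barcodes past the filter, wt 3 had the most at 72.6 (exact 95% interval 59.0 to 88.4) and the unassigned male had 69.6 (50.8 to 93.1), while wt 4 had 6.43 (3.60 to 10.6) and the unassigned female 9.10 (5.48 to 14.2). The 0 of 996 in wt 5 allows up to 30.1 per 10000 when 0 is read as up to 3 barcodes, and the exact interval drawn for it in the plot of members by library reaches 37.0. The 2 libraries that are female by label and by transcripts and that held members therefore lay below all 7 male-labelled libraries, which ranged from 17.4 to 72.6. The intervals cover counting error only. How much of each organ entered a pool is unknown, so a share can move with the amount of tissue.

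**Figure D1:**
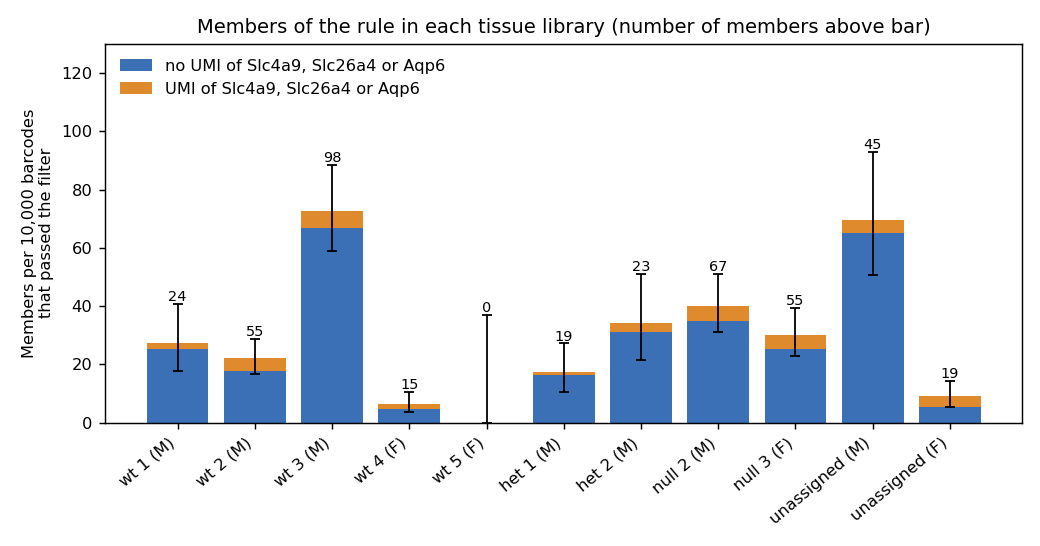
Members per 10000 barcodes that passed the filter (vertical axis) in each of the 11 tissue libraries (M and F, labelled sex), split into those with and without a UMI of Slc4a9, Slc26a4 or Aqp6, with exact 95% binomial intervals of the sum as whiskers and the number of members above them. The shares run from 0 in wt 5 to 72.6 in wt 3, and wt 4 and the unassigned female are the lowest of those with members.

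The genes of the rule were unevenly represented among the members, which is given as a description because the rule chose on them. Atp6v1g3, a V1 subunit found in few cell types, was detected in 405 members (96.4%), and Atp6v0d2, a V0 subunit also found in macrophages, in 316 (75.2%). Foxi1 was detected in 270 (64.3%). The transporter genes were much rarer, with Aqp6 in 42 members (10.0%), Slc26a4 in 15 (3.57%) and Slc4a9, a bicarbonate transporter of type B cells, in 7 (1.67%). In barcodes with Ptprc, which should lack these genes and had a similar median of 2041.5 UMIs, Atp6v1g3 was detected in 1.401%, Foxi1 in 0.422%, Aqp6 in 0.146% and Slc26a4 in 0.193%, but Atp6v0d2 in 17.97%. The commonest combinations were Atp6v1g3 with Atp6v0d2 and Foxi1 (143 members), Atp6v1g3 with Atp6v0d2 (127) and Atp6v1g3 with Foxi1 (80). Thus 363 of 420 members met the rule without any UMI of Slc4a9, Slc26a4 or Aqp6, and 57 carried at least 1.

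The label of intercalated cell was checked against markers that the rule did not use. In pooled levels, several of them were far higher in the 57 members with a transporter UMI than in the 363 without. Slc4a1, the bicarbonate exchanger of type A cells, stood at 379 CPM (68 UMIs; CPM is the number of UMIs of a gene per 1000000 UMIs of the pooled barcodes) in the 57 and at 5.98 CPM (7 UMIs) in the 363. Rhbg and Rhcg, ammonia transporters of the collecting duct, stood at 245 and 151 CPM in the 57 against 23.9 and 10.2 CPM. Insrr, a receptor that senses alkaline fluid in type B cells, stood at 134 against 11.1 CPM, and Oxgr1, the oxoglutarate receptor of the same cells, at 145 against 12.0 CPM. In each of the 5 libraries with at least 8 members that had a transporter UMI, Rhbg, Insrr and Oxgr1 were higher in those members than in the others. Slc4a1 and Rhcg were higher in 4 of the 5, the exception being wt 3 with 0 UMIs of either gene in 8 such members. The pooled levels do not hold for each member: Slc4a1 was detected in 18 of the 57 and Insrr in 11. The 2 such members of wt 1 had 0 UMIs of Slc4a1, Rhbg, Rhcg, Insrr and Oxgr1. Slc4a1 was also present in barcodes removed for epididymal genes, described below, so it does not by itself place a barcode in the kidney.

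Other intercalated markers were shared by both sets of members. As a list, the 22 further intercalated genes were also high in the 416 barcodes removed for Cst8 or Spink8 alone, described below. There they summed to 2394 CPM, against 5599 and 2785 CPM in members with and without a transporter UMI and 516 CPM in the other barcodes. High levels of these genes therefore do not by themselves place a barcode in the kidney. Atp6v1b1, the V1 subunit characteristic of pump-rich cells, stood at 329 CPM with and 167 CPM without a transporter UMI, against 5.97 CPM in all other barcodes past the filter. Tfcp2l1, a transcription factor of the collecting duct, stood at 1004 and 741 CPM against 39.4. Hepacam2, an adhesion protein of intercalated cells, stood at 184 and 140 CPM against 5.80, and Dmrt2, a transcription factor of type A cells, at 112 CPM in both sets against 1.46. By contrast, Clcn5 was lower in members with a transporter UMI (998 CPM) than in those without (2276 CPM), as was Slco1a5, an organic anion transporter, at 66.9 against 236 CPM. The pooled gap in Clcn5 was uneven across the 5 libraries with at least 8 members that had a transporter UMI: it was small in wt 3 (2647 against 2739 CPM) and turned in the unassigned female (378 against 0 CPM), a library that held 8 of the 57 members and 11 of the 363.

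The sets were also compared at equal depth. Thinned to 1000 UMIs each, with 8 and 56 shallower barcodes left out, Slc4a1 was detected in 22.4% of 49 members with a transporter UMI (exact 95% interval 11.8 to 36.6%) and in 0.326% of 307 without (0.00825 to 1.80%). Unthinned, the shares were 31.6% and 1.102%. Rhbg was detected in 28.6% against 3.26% and Insrr in 14.3% against 1.30% after thinning. Tfcp2l1 was near equal at 51.0% and 48.5%, whereas Clcn5 was detected in 32.7% against 65.1%. The members with a transporter UMI had a higher median mitochondrial share (30.2% against 20.1%) and more barcodes marked by Scrublet score (22.8% against 11.6%). The rate of marking was set for each library, and the libraries contributed unevenly to the sets. Markers of other cells also differed between the sets. The 4 endothelial genes summed to 686 CPM in the members with a transporter UMI against 169 CPM, and Klk1, listed with the distal tubule, stood at 1327 against 23.9 CPM, while Slc12a3 was at 0 by the rule and Calb1 had 2 UMIs in the 57. The part of these markers in the other differences was not tested. Both sets were defined after their values were seen, so no test is attached.

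**Figure D2:**
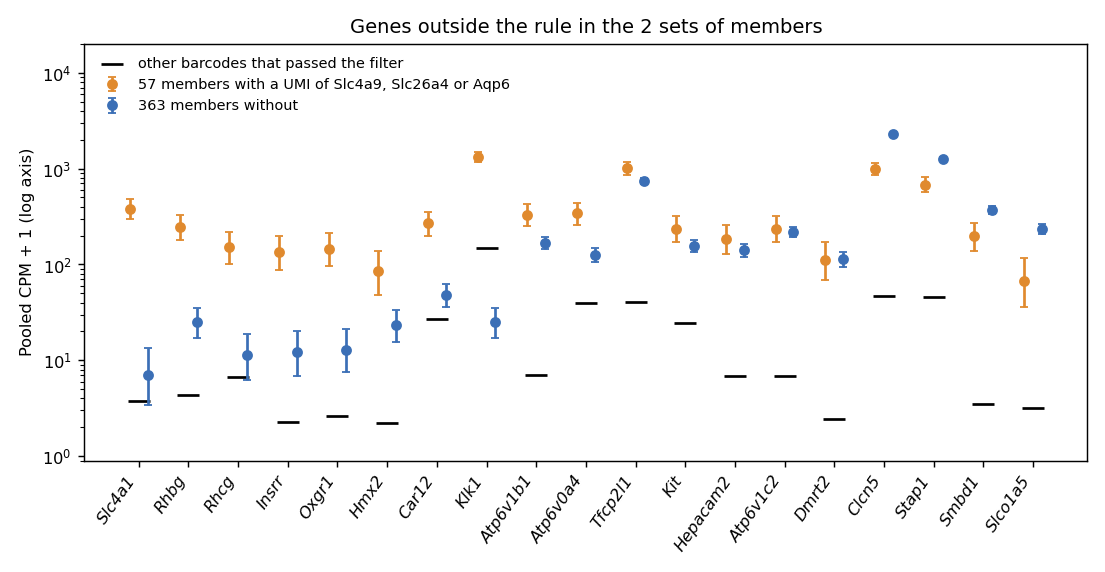
Pooled level of each gene (CPM plus 1, logarithmic axis) in the 57 members with a UMI of Slc4a9, Slc26a4 or Aqp6 and the 363 without, with exact 95% Poisson intervals, and in the other barcodes (dashes). Slc4a1, Rhbg and Insrr lie far apart between the sets, Tfcp2l1, Dmrt2 and Atp6v1c2 lie close together, and Clcn5 and Slco1a5 are lower in the 57.

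The members with a transporter UMI were also split by Aqp6 and Slc26a4, both genes of the rule, and the values are a description over pooled barcodes with no test. Aqp6 without Slc26a4 was seen in 40 members from 9 libraries, Slc26a4 without Aqp6 in 13 members from 7 libraries, and both genes together in 2. Slc4a1 had 68 UMIs in the 40 Aqp6 members (550 CPM, exact 95% Poisson interval 427 to 697) and 0 in the 13 Slc26a4 members (at most 88.9 CPM by the same interval). Adgrf5, an adhesion receptor of type A cells, had 119 UMIs (962 CPM) against 3 (72.3 CPM), and Dmrt2 had 20 against 0. In the other direction, Insrr had 4 UMIs in the Aqp6 members (32.3 CPM) and 19 in the Slc26a4 members (458 CPM), and Hmx2, a homeobox factor of type B cells, had 1 against 12 (8.09 and 289 CPM). The 12 Hmx2 UMIs came from 4 barcodes, and wt 4 and the unassigned female held 7 and 4 of the Hmx2 UMIs of members with a transporter UMI. Kit, a receptor of type A cells, stood at 291 and 96.4 CPM and Oxgr1 at 113 and 265 CPM. Foxi1 stood at 348 and 217 CPM and Atp6v0d2 at 420 and 337 CPM. Klk1, a protease that stood at 15210 CPM in the principal-like barcodes described below, was at 364 CPM in the Aqp6 and 4653 CPM in the Slc26a4 members. Since at most 8 Aqp6 and 4 Slc26a4 members came from any library, the planned comparison of the sides within libraries could not be run.

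The 20 genes outside the rule that stood out most in members were led by genes that are not classical intercalated markers. They were ranked by the median over the 7 libraries with at least 20 members of the log2 ratio of CPM in members to CPM in all other barcodes, with 10 CPM added to both. Because the members were chosen by their RNA, this ranking is a description. At its head stood Smbd1 (median log2 ratio 5.26), Clcn5 (5.17) and Stap1, an adaptor protein (4.58), followed by 2610016A17Rik, a transcript beside Dmrt2 on chromosome 19 (4.17), Slco1a5 (4.16) and Fyb2 (4.07). Tfcp2l1 (3.85), Atp6v1c2 (3.61), Dmrt2 (3.59), Atp6v1b1 (3.52) and Hepacam2 (3.40) were the classical markers among the 20. The rest were Serpinb9, Edn3, Gpm6b, Il13ra2, Ltbp2, Tmem117, Iapp, Kcnma1 and Mcf2, between 3.32 and 4.04. Of the 20, 19 were higher in members in 7 of 7 libraries and Iapp in 6. This follows largely from the ranking, which used the same 7 libraries, so it is no further evidence. Of 9378 genes, chosen without regard to that ranking, 12.3% were higher in all 7 libraries.

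**Figure D3:**
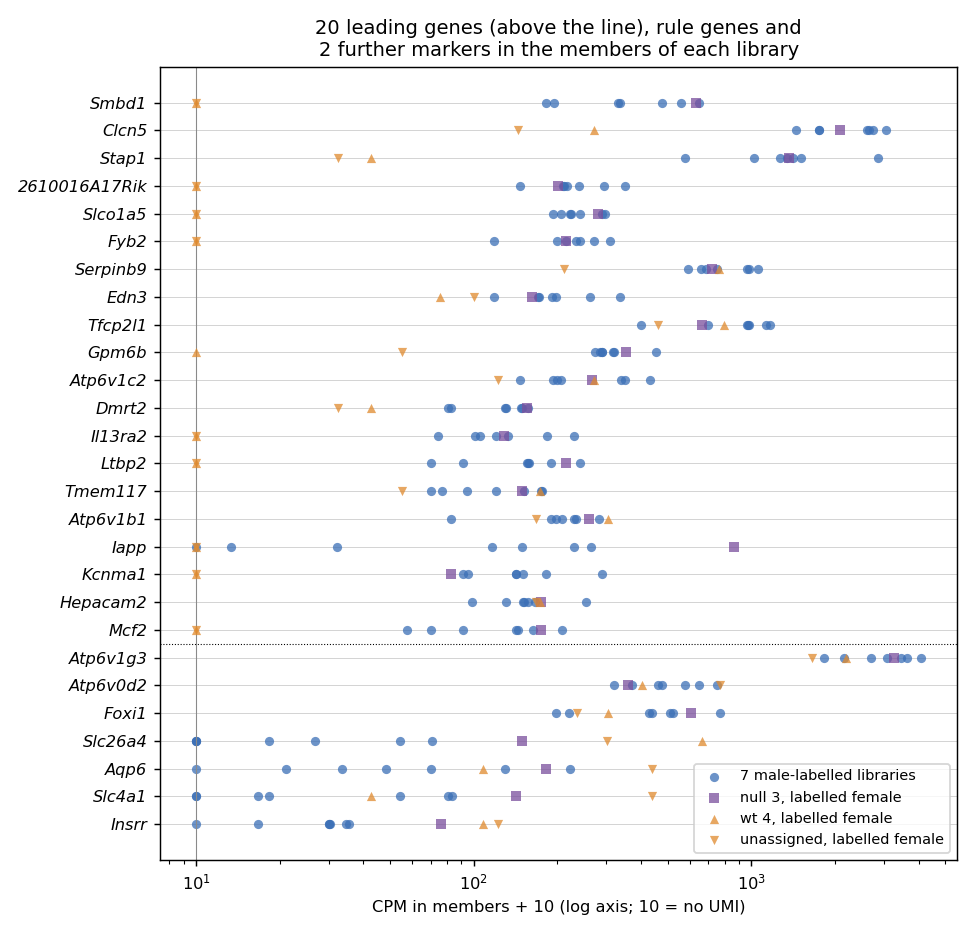
Level in members (CPM plus 10, logarithmic axis) of the 20 leading genes above the dotted line, and of rule genes and further markers below it, with a point for each library by labelled sex. For 9 genes, including Smbd1, Slco1a5 and Mcf2, wt 4 and the unassigned female sit at 10, the position of 0 UMIs, while null 3 lies among or beside the male-labelled libraries.

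The leading genes split by library. Smbd1 stood at 468 CPM in wt 1, 184 in wt 2, 327 in wt 3, 319 in het 1, 640 in het 2, 172 in null 2, 621 in null 3 and 546 in the unassigned male, but had 0 UMIs in wt 4 and in the unassigned female. Slco1a5 showed the same split, with 182 to 286 CPM in the 7 male-labelled libraries, 271 CPM in null 3 and 0 in wt 4 and the unassigned female. In all, 9 of the 20 genes (Smbd1, 2610016A17Rik, Slco1a5, Fyb2, Il13ra2, Ltbp2, Iapp, Kcnma1 and Mcf2) had 0 UMIs in the 34 members of those libraries. The ranking used only libraries with at least 20 members, which left this pair out, so the genes were chosen where they were high. Of all 2170 genes with at least 77 UMIs in members of male-labelled libraries, the lowest number among the 9, 1.89% had 0 UMIs in the pair. These 34 members held 75143 UMIs, so that a count of 0 allows 39.9 CPM. Against that floor, taken over both libraries together, Smbd1 was at least 8.29-fold higher and Slco1a5 at least 5.51-fold higher in the 331 members of male-labelled libraries, and Iapp at least 1.72-fold in the pooled male members, although it lay below the floor in 3 of the 7 male-labelled libraries (22.2 CPM in wt 2, 3.37 CPM in wt 3 and 0 in het 1). Clcn5 was present in both but was 12.0-fold higher in the male-labelled libraries (2238 CPM, range 1434 to 3035) than in the female pair (186 CPM, with 134.7 and 261 CPM in the 2 libraries).

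Other markers were present on both sides of that split. Of the pump genes, Atp6v1b1 stood at 213 CPM in the 34 members against 179 CPM in the 331, and Atp6v1c2 at 173 against 217 CPM. Hepacam2 stood at 160 against 142 CPM and Tfcp2l1 at 586 against 805 CPM. Atp6v1g3 stood at 1863 against 2587 CPM and Atp6v0d2 at 612 against 455 CPM. The transporter genes were higher in the pooled female pair, with Slc26a4 at 439 against 23.1 CPM, Aqp6 at 293 against 55.2 CPM, Slc4a1 at 266 against 31.1 CPM and Insrr at 106 against 16.9 CPM. The pair itself varied, with Slc26a4 at 654 CPM in wt 4 and 292 CPM in the unassigned female, and Slc4a1 at 32.7 CPM in wt 4, inside the male range of 0 to 73.2 CPM, and 427 CPM in the unassigned female. Aqp6 stood at 98.0 CPM in wt 4, also inside the male range of 0 to 213 CPM, and at 427 CPM in the unassigned female. A UMI of Slc4a9, Slc26a4 or Aqp6 was found in 4 of 15 members of wt 4 and 8 of 19 of the unassigned female (26.7% and 42.1%), but in 5.26% to 20% of members in male-labelled libraries. Labelled sex and the organ that differed between the pools cannot be told apart, and the libraries were grouped this way after their values were seen.

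Within null 3 these genes could be set beside the sex transcripts of each barcode. Of its 55 members, 9 held Y transcripts alone, 11 held Xist alone, 4 held both and 31 held neither. All 21 Slc26a4 UMIs and all 20 Slc4a1 UMIs of null 3 lay in the 11 members with Xist alone, as did 22 of its 26 Aqp6 UMIs. Of the 9 members with Y transcripts alone, 0 had a transporter UMI, against 5 of the 11 with Xist alone. Smbd1 had 23 UMIs among the 28487 of the Y members (807 CPM) and 7 among the 37216 of the Xist members (188 CPM), and Clcn5 stood at 3370 against 967 CPM. Of the 9 leading genes at 0 UMIs in the female pair, 7 were higher in the Y members of null 3, most on few UMIs, beside 51.1% of the 7485 genes with a UMI in either set; the 9 had been chosen for being high in mostly male libraries. Kcnma1 went the other way (35.1 against 80.6 CPM, from 1 and 3 UMIs), and Iapp was at 0 in both, its 130 UMIs lying in the 31 members with neither. Edn3 was near equal at 176 and 161 CPM. Atp6v1g3 stood at 3791 and 2176 CPM. These are 20 barcodes of a single library, and the values are given with no test.

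The V-ATPase genes showed which isoforms of the pump the members carried. Summed over the 13 V1 genes the members stood at 6318 CPM against 1611 CPM in the other barcodes. The rule gene Atp6v1g3 supplied 2620.02 of the 6318 CPM. Without it the 12 other genes summed to 3697.5 against 1577 CPM, at 3004 to 5032 CPM in members and 1315 to 2023 CPM in the others over the 7 libraries. The barcodes removed for Cst8 or Spink8 alone, described below, stood at 2917 CPM for the same genes, so the higher sum was not particular to members. Of these 12 genes, 7 were higher in members in all 7 libraries and 1 was lower in all 7, beside 12.3% and 9.25% of genes with at least 10 UMIs. Among the higher genes were Atp6v1a, the catalytic subunit, at 837 against 212 CPM and Atp6v1e1, a stalk subunit, at 847 against 221 CPM. For the B and C subunits, the copy typical of pump-rich cells was raised and the general copy was not. Atp6v1b1 stood at 189 CPM against 5.97 CPM, whereas its general copy Atp6v1b2 stood at 120 against 145 CPM. Atp6v1c2 stood at 219 against 5.85 CPM, whereas Atp6v1c1 stood at 72.6 against 99.5 CPM and was lower in all 7 libraries. Of the G subunits, the general copy Atp6v1g1 stood at 409.5 against 429 CPM, beside the rule gene Atp6v1g3 at 2620.02 against 33.7 CPM. Atp6v1e2, the testis copy, had 0 UMIs in members.

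The V0 and accessory genes differed less, at a sum of 2660 CPM in members and 1356 CPM in the other barcodes. Without the rule gene Atp6v0d2 (452 against 126 CPM) the sums were 2208 and 1230 CPM, and 3 of the 11 other genes were higher in all 7 libraries, beside 12.3% of genes: Atp6v0a4, the subunit of the plasma membrane pump (153 against 39.0 CPM), Atp6v0b (652 against 328 CPM) and Atp6v0e (758 against 380 CPM). Those 11 genes summed to 1830 CPM in the barcodes removed for Cst8 or Spink8 alone. Atp6v0a1 and Atp6v0d1, general copies, were lower in most libraries, with Atp6v0a1 at 26.7 against 32.5 CPM and Atp6v0d1 at 75.5 against 99.7 CPM. Tcirg1, the copy of osteoclasts and immune cells, stood at 30.4 against 53.4 CPM. Atp6v0c, which has near-identical copies in the genome that can split its reads, had 4 UMIs and is uncertain.

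**Figure D4:**
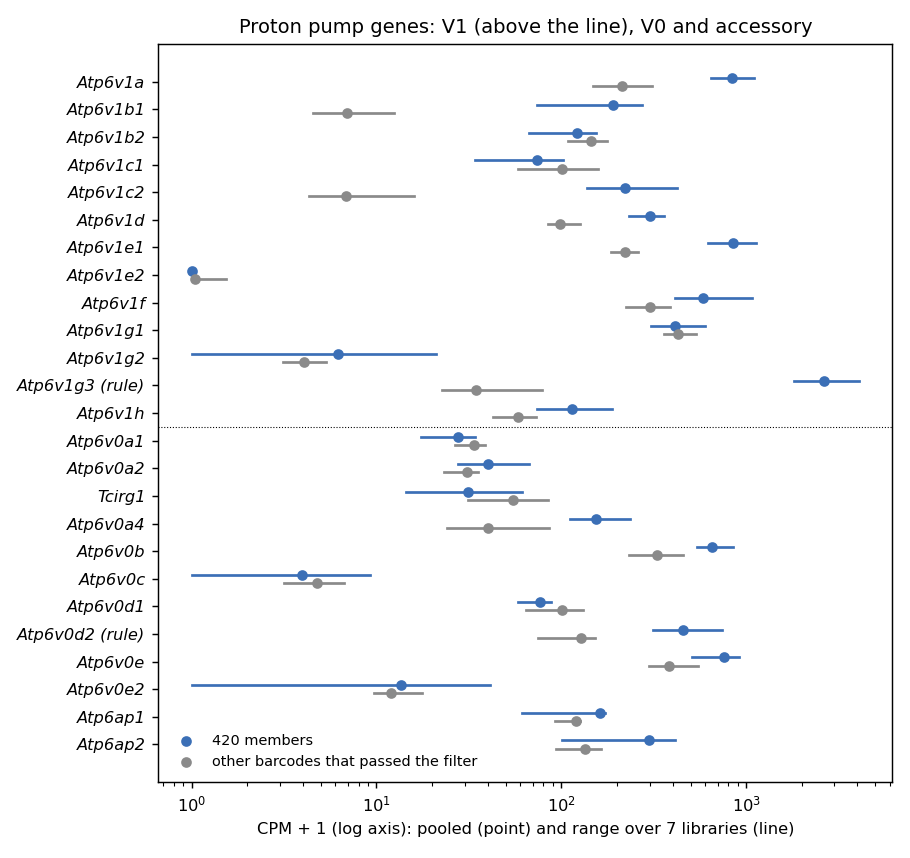
Level of each V-ATPase gene (CPM plus 1, logarithmic axis) pooled over the 420 members and over the other barcodes that passed the filter (points), with the range over the 7 libraries with at least 20 members (lines). Members lie far to the right for Atp6v1b1 and Atp6v1c2 and to the right for Atp6v0a4, but not for Atp6v1b2, Atp6v1c1 or Atp6v0d1.

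Acid-base genes and regulators outside the pump followed. Car2, the cytosolic carbonic anhydrase, stood at 354 CPM in members and 118 CPM in the other barcodes and was higher in 7 of 7 libraries, and Bsnd stood at 29.6 against 2.15 CPM. Slc26a7, an anion exchanger of type A cells, had 2 UMIs in all members, and Car15 had 1. Of the 17 acid-base genes, 7 were higher and 2 lower in all 7 libraries, and of the 16 regulators 5 were higher and 2 lower, beside 12.3% and 9.25% of genes. Among those lower were Car4 (15.6 against 75.2 CPM), Slc12a7 (22.2 against 31.4 CPM) and Notch2 (4.44 against 30.8 CPM). Among regulators, Gata3 (107 against 23.95 CPM) and Ppargc1a, a driver of mitochondrial growth (104 against 28.5 CPM), were higher in 7 of 7 libraries. Pax2, a kidney and genital duct factor, stood at 43.7 against 10.0 CPM. Kl (klotho), a distal tubule gene, stood at 19.99 CPM in members against 534 CPM in principal-like barcodes. Of the sodium pump list none of 4 genes was higher in all 7 libraries, and Atp1b1 stood at 522 CPM in members against 2955 CPM in principal-like barcodes.

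Markers of other cell types were present at varied levels. The 56 principal-like barcodes (Aqp2 and at least 1 of 4 further principal cell genes) had Aqp2 at 4446 CPM, against 19.3 CPM in members, and the summed level of the 10 principal genes was 97.0 CPM in members and 68.4 CPM in the other barcodes. The 10 epididymal genes summed to 360 CPM in members (20.2 to 1109 CPM over the larger libraries) and 5754 CPM in the other barcodes, and Cst8 and Spink8 were at 0 by the rule. The 9 proximal tubule genes summed to 3813 against 8883 CPM, and all 9 were lower in members in all 7 libraries, beside 9.25% of genes. The 7 leukocyte genes summed to 1045 against 6540 CPM, with Ptprc at 0 by the rule. Barcodes with Ptprc, Cst8 or Spink8 were removed from the members only and stayed among the others. The lower leukocyte and epididymal sums therefore follow in part from the rule. The 4 red-cell genes summed to 11924 CPM in members and 12188 CPM in the other barcodes, and to 19.998 to 37400 CPM in members over the larger libraries. The 4 gastric genes summed to 1772 against 1522 CPM. Tff1 among them stood at 4855 CPM in the members of wt 3 and at 22.0 to 327 CPM in those of the other 9 libraries with members. Ascl3, a factor of airway and salivary pump cells, had 0 UMIs in members, as did Nalcn, so the deletion could not be checked in them. Prom1, which drives the recombinase, had 8 UMIs. Of the 8 epithelial genes, 7 were higher in members in all 7 libraries, beside 12.3% of genes, among them Epcam at 538 against 79.9 CPM.

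The exclusions of the rule removed more barcodes than they kept. The positive part of the rule was met by 1392 barcodes, of which 420 (30.2%) stayed. Spink8 was present in 662 of the 1392, Ptprc in 414, Umod in 164, Slc12a3 in 73 and Cst8 in 60. Barcodes removed for Cst8 or Spink8 alone numbered 416, and they carried Atp6v1g3 at 1528 CPM, Foxi1 at 207 CPM, Clcn5 at 1048 CPM and Slc4a1 at 69.7 CPM, together with epididymal genes that summed to 57034 CPM. In wt 4 and the unassigned female 6 and 3 barcodes were removed in this way, against 21 to 125 in the male-labelled libraries. In null 3, labelled female, 45 were removed, inside the male range. At the threshold on rule genes, 768 barcodes with exactly 1 rule gene lay just outside, with Atp6v1b1 at 20.9 CPM and Tfcp2l1 at 153 CPM, and 232 with exactly 2 lay just inside, with 125 and 561 CPM. The 163 members with exactly 3 had 217 and 916 CPM. At the mitochondrial threshold, 22 members lay between 50 and 60% with Tfcp2l1 at 614 CPM, and 13 barcodes between 60 and 70% lay outside with 231 CPM.

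In blood, 0 of 2887 barcodes past the filter in 11 libraries met the positive part of the rule, which allows a share of up to 0.104%. Atp6v1g3 had 1 UMI and Foxi1 2 in all blood libraries together.

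The share of members among barcodes did not differ detectably between genotypes. It was 0.351% ± 0.0705 (SD, n = 2) in null and 0.257% ± 0.285 (SD, n = 5) in wt libraries (difference 0.0946 percentage points, exact two-sided permutation test p = 0.714, smallest possible 0.0476). In het libraries it was 0.257% ± 0.118 (SD, n = 2; p = 1 by the same exact test). Restricted to the members with a transporter UMI it was 0.0516% ± 0.00322 (SD, n = 2) in null and 0.0287% ± 0.0233 (SD, n = 5) in wt as a description, since this set was chosen after its values were seen. Among male-labelled libraries alone, wt had 22.1 to 72.6 and null 2 had 40.1 members per 10000 barcodes. Set against principal-like barcodes, members made up 86.6% ± 0.993 (SD, n = 2) of both kinds together in null, 93.2% ± 7.58 (SD, n = 3) in wt and 84.0% ± 11.3 (SD, n = 2) in het, with p = 0.4 for both genotypes in an exact permutation test that cannot go below 0.1. Since the organ of each member is unknown, this is not a share of the collecting duct. Libraries with under 20 barcodes of both kinds together were left out, among them wt 4 with 15 members and 4 principal-like barcodes. The difference from wt moved with single libraries: that of null, -6.60 percentage points, was -3.71 without wt 3 and -10.9 without wt 2, and that of het, -9.20, was -1.20 without het 1 and -17.2 without het 2. The null difference turned to 1.74 with mitochondrial UMIs at most 25% and to 0.676 with 1 UMI of the tubule and epididymal genes allowed. With only the members that had a transporter UMI the share was 49.0% ± 5.62 (SD, n = 2) in null, 69.3% ± 18.4 (SD, n = 3) in wt and 32.1% ± 25.3 (SD, n = 2) in het. It is given without a test because this set was chosen after its values were seen. The minimum of 20 barcodes was not applied to this set. Its members and principal-like barcodes numbered 2 and 1 in wt 1, 11 and 10 in wt 2 and 8 and 1 in wt 3. They numbered 1 and 6 in het 1 and 2 and 2 in het 2. In null 2 they numbered 9 and 11, and in null 3 they numbered 9 and 8. Nothing in the labels says that the libraries of a group came from separate mice, so these p-values measure the spread between libraries.

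The balance of the type B gene Slc26a4 and the type A gene Aqp6 among member UMIs was 6 of 27 in null 2 and 21 of 47 in null 3, against 1 of 1 in wt 1, 14 of 26 in wt 2 and 5 of 12 in wt 3. The library wt 4 had 20 Slc26a4 and 3 Aqp6 UMIs, but with 15 members, under the minimum of 20, it is not in the means below. The mean share of Slc26a4 was 33.5% ± 15.9 (SD, n = 2) in null and 65.2% ± 30.8 (SD, n = 3) in wt, and the groups overlapped, since null 3 exceeded wt 3. Without wt 1, which rests on 1 UMI, the wt mean was 47.8% and the difference moved from -31.7 to -14.3 percentage points. As a share of members thinned to 1000 UMIs, the difference turned to 8.33 percentage points. Both genes chose the members, so these shares are a description with no test. In het 2 it was 0 of 3, with no test.

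Across 3507 genes, edgeR called 0 (0% of genes) in the comparison of null with wt, fitted to wt 1 to wt 3, het 2, null 2 and null 3 with labelled sex as a covariate. Since null 3 was the only female-labelled library in this fit, the covariate took up its values, and the fold changes compare null 2 alone with wt 1 to wt 3. Null 2 is assumed to vary like the wt libraries. At an unadjusted p under 0.05 there were 82 genes, 20 higher and 62 lower in null, and DESeq2 called 0 as well with 18 at that level. Without the sex covariate, where both null libraries enter the contrast but genotype and labelled sex are partly mixed, edgeR called 0 genes as well, with 98 at that level. The median log2 fold change of all genes was -0.08 with and -0.04 without the covariate. Aqp6 is a gene of the rule, so its values are a description. It stood at 213 CPM in null 2 and 172 CPM in null 3, against 0 in wt 1, 38.1 in wt 2 and 23.6 in wt 3. Both null libraries lay above all 3 wt libraries, as they did for 10.0% of the genes tested (they lay below all 3 for 7.96%). It also stood at 59.99 CPM in het 2, 120 CPM in the unassigned male, 98.0 CPM in wt 4 and 427 CPM in the unassigned female, so that null libraries did not exceed all others. Its log2 fold change was 3.03, or 2.89 without the sex covariate, and over 18 alternative analyses it ran from 0.62, with 1 UMI of the tubule and epididymal genes allowed, to 3.62 without wt 2. Without wt 3, 25 genes were called in all.

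The other listed genes gave no call. Foxi1, also a gene of the rule and given as a description, stood at 760 and 594 CPM in the null libraries and at 427, 209 and 417 CPM in wt 1 to wt 3 (log2 fold change 1.04, or 0.89 without the sex covariate), a separation of the groups that 10.0% of genes share. Slc4a1 had a log2 fold change of 1.60 (SE 1.12) and Rhbg of 1.55 (SE 0.68), and without the covariate 2.16 (SE 0.81) and 1.02 (SE 0.61), with no call. The value of Slc4a1 was 3.08 without wt 2 and 0.42 with 1 UMI of the tubule and epididymal genes allowed. That of Rhbg turned to -0.31 with 1 UMI of these genes allowed and was 0.63 with at least 10 members per library. Of the 22 further intercalated genes, 14 were tested, and 12 had a positive and 2 a negative fold change, with 0 at an unadjusted p under 0.05 and a median of 0.58. Without the covariate 11 were positive, with 1 at that level and a median of 0.40. Leaving out rule genes, 7 of 10 V1 genes tested were positive (median 0.21) and 3 of 6 V0 genes (median 0.01), beside 45.4% of all genes. Clcn5 (0.35, SE 0.51) and Tfcp2l1 (0.44, SE 0.58) stayed within their error. The 4 haemoglobin genes, whose near-identical copies can share reads, all had negative fold changes, Hbb-bs of -2.46 (SE 0.89, edgeR adjusted p = 1; -2.75 without the covariate), with 22407, 14093 and 5619 CPM in wt 1 to wt 3 against 2717 and 1717 CPM in null; they mark red cells. Over the alternative analyses the log2 fold change of Hbb-bs ran from -2.83 to 0.13, the latter with 1 UMI of the tubule and epididymal genes allowed. Markers of other cells also had fold changes of 1 sign in this fit, none of them called. With the covariate, the 4 endothelial genes were all negative (median log2 fold change -3.05), as were the 7 proximal tubule genes tested (-1.31) and the 4 gastric genes (-2.33), while the 5 epididymal genes tested were all positive (1.59). Without it, 5 of the 7 proximal tubule genes were negative and the endothelial, gastric and epididymal genes kept their signs. The negative sign of the gastric genes rested on wt 3. Tff1 stood at 4855 CPM in wt 3 but at 65.7 and 73.0 CPM in wt 1 and wt 2, against 304 and 99.0 CPM in null. Gkn1 and Gkn2 were likewise higher in both null libraries than in wt 1 and wt 2. The part of these markers in the values of the intercalated genes was not tested. Iapp stood at 253 and 858 CPM in null and 140, 22.2 and 3.37 CPM in wt (log2 fold change 2.39, or 3.60 without the covariate), also without a call. Over the alternative analyses its log2 fold change ran from 0.93 to 5.11, and it was 4.15 without wt 1 and 1.75 without wt 3.

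**Figure D5:**
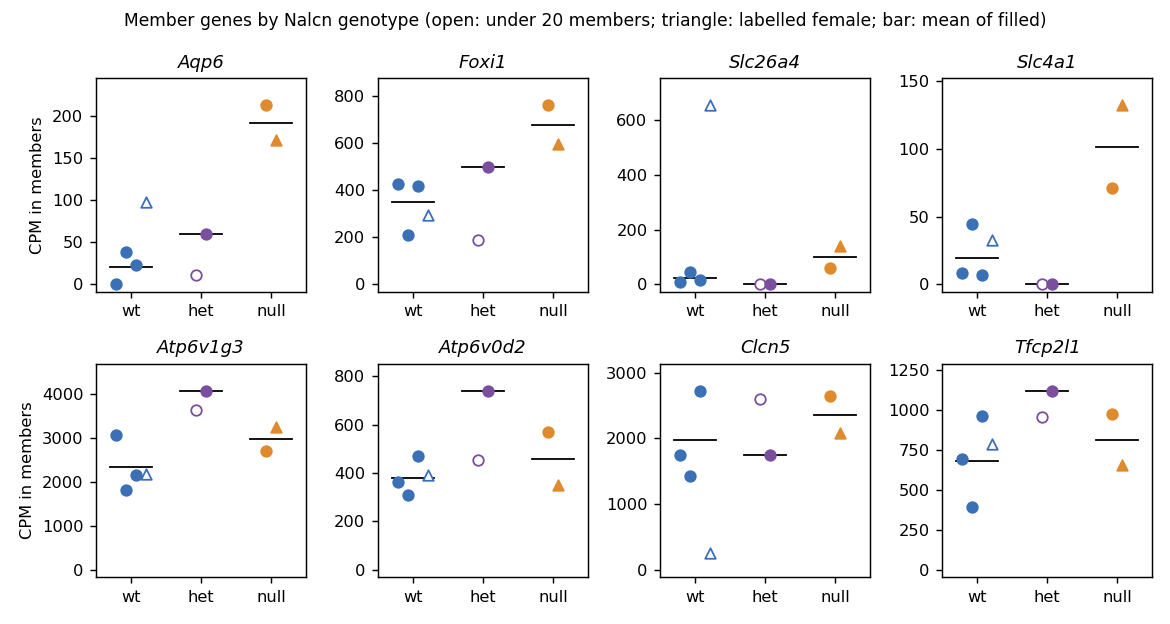
Level in members (CPM, linear axes) of 8 genes in the wt, het and null libraries, with a point for each library, open where it had under 20 members and a triangle where labelled female, and a bar at the mean of the filled points. The null points lie above the wt points for Aqp6 and Foxi1, and the groups overlap for Atp6v1g3 and Tfcp2l1.

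The het group and labelled sex could not be tested with at least 20 members per library, since 1 het and 1 female-labelled library reached that number. With at least 10 members, edgeR called 0 of 2301 genes between het and wt (0%; 138 at an unadjusted p under 0.05; DESeq2 was not run at this minimum) and 1 of 2301 (0.0435%) between labelled sexes, which was Xist.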

How the data were processed

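The deposited files hold raw UMI counts per gene and barcode for 31053 genes, made by the authors with Cell Ranger from Chromium 3′ v3 libraries on build mm10; the file headers name version 3.0.2 and the submitters' processing notes 2.1.1, with Seurat. The counts were not normalized, and barcodes with few genes were still present, so the filter on genes and mitochondrial UMIs decides which barcodes were used (151494 of 176676). Hashtag counts were not used. Depth per tissue library was 8571019 to 139793927 UMIs.

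Members were found by the rule given in the first paragraph. The members, gene lists and tests were chosen with earlier results of these data known. UMIs were summed over members per library. Libraries with at least 20 members were tested with edgeR 4.0.16 (R 4.3.3; TMM scaling, filterByExpr, quasi-likelihood test, labelled sex as covariate, which sets null 3 apart as the only female-labelled library in the fit, Benjamini-Hochberg adjustment at 0.05), with DESeq2 1.42.0 as an alternative, and the fit was tested on simulated data. The simulation assumed the same spread between libraries for all genes and changed both null libraries, whereas the covariate sets null 3 apart here. No conclusion on these data is drawn from it. Shares were compared with exact two-sided permutation tests over libraries. The share of Slc26a4 UMIs and the fold changes of rule genes, also computed with tests, are given without them because these genes chose the members. Intervals are exact (Clopper-Pearson for shares, Poisson for UMIs) at 95%, and a count of 0 was read as up to 3 UMIs or barcodes. Genes named are those of the lists, up to 10 called genes in each direction with at least 20 CPM, and the 20 leading genes outside the rule. Genes named from the split of libraries by sex were described after their values were seen. Doublets were scored per library with Scrublet in scanpy 1.11.5, at an expected rate of 0.8% per 1000 barcodes and at most 25%. The barcodes with the highest scores were marked, up to the share given by that rate, and were kept as members. The 1.20% to 22.2% of barcodes marked therefore follow the assumed rate. Gene positions are from GENCODE M21. The values of 2 listed genes are not reported here.

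Replicate libraries differed beyond counting error (chi-square per gene 2.62 to 9.55), so each was counted once. Alternatives changed the scaling, the filters, the rule, the minimum number of members, the covariates and the libraries.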

Additional observations from a re-analysis of the deposited data

Results flagged for a closer look

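In 50 groups of 4 or 5 wt libraries tested for a library far from the others, 5 stood out. Chance gives about 1 in 20 for independent groups, but these groups were made of the same libraries. Each was a gene level in members of the wt libraries that held any. Among these, wt 4 is the only female-labelled library, so its values overlap with the split of libraries described above. Slc26a4 stood at 654 CPM in wt 4, against 8.21 to 44.4 CPM in wt 1 to wt 3. Hmx2 stood at 327 CPM in wt 4, against 6.73 to 12.7 CPM. Slco1a5 was at 0 in wt 4, against 197 to 213 CPM. Iapp stood at 139.6 CPM in wt 1, against 0 to 22.2 CPM. Car15 stood at 3.17 CPM in wt 2, a single UMI, against 0 elsewhere. In the libraries with conflicting genotype labels, 45 members were found in the unassigned male and 19 in the unassigned female.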

How the results depend on the processing

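The count of genes called between null and wt moved from 0 to 13 with no low-count filter, 3 with at least 3 rule genes, 12 with at least 50 members per library, 13 with the replicate block, 11 with the replicate block and at least 10 members, and 0 to 25 when a library was left out; the 25 came without wt 3. Leaving out null 3 says nothing about its weight, because the sex covariate already takes up this library. Leaving out null 2 gave no value, because sex and genotype then cannot be told apart. The design gives het and labelled sex no test at 20 members per library, so their values are compared with the fit at 10, an alternative that took the place of the planned one after the data were seen. With at least 10 members, or with 1 UMI of the tubule and epididymal genes allowed, het called 0 genes and labelled sex 1; without the sex covariate at 10 members they called 0 and 1, and with the replicate block at 10 members 28 and 9. Correlations of same-numbered libraries were -0.07 and -0.12. They cannot tell whether numbers pair the libraries, because values were centred per group and the 2 null libraries then mirror each other. The block therefore stands for a shared number only.

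The null share difference was -0.122 percentage points with the block, and 0.0303 to 0.212 when a library was left out. It was 0.249 with 500 genes, 0.0361 with 3 rule genes, 0.0297 with 1 UMI allowed and 0.0230 in members with a transporter UMI. The het difference, 0.000356, became -0.0788 with mitochondrial UMIs at most 25%, -0.0965 with 500 genes, -0.00826 with 3 rule genes, -0.0160 with 1 UMI allowed and -0.00928 in members with a transporter UMI, and ran from -0.0829 to 0.118 when a library was left out. The difference between null and wt in the share of members among members plus principal-like barcodes, -6.60, became 1.74 with mitochondrial UMIs at most 25% and 0.676 with 1 UMI allowed, and -20.3 in members with a transporter UMI, where that of het moved from -9.20 to -37.2 (-0.123 with 1 UMI allowed); leaving out a library gave -10.9 to -3.71 for null and -17.2 to -1.20 for het, while the Slc26a4 difference became 8.33 as a share of members thinned to 1000 UMIs. The -20.3 and -37.2 rest on few barcodes per library, since the minimum of 20 was not applied to this set. Members numbered 272 with mitochondrial UMIs at most 25%, 368 with 500 genes, 188 with 3 rule genes, 663 with 1 UMI allowed and 365 without doublets, of which 9.19% to 23.9% had a transporter UMI.

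With 1 UMI allowed, log2 fold changes between null and wt turned to -1.39 for Slc26a4, -0.31 for Rhbg and 0.13 for Hbb-bs. Slc26a4 was also -0.74 with at least 10 members, Clcn5 was -0.50 with 3 rule genes, and Atp6v1g3 ran from -0.041 to 0.37 when a library was left out. These causes were not tested. In 72 further cases a value that answers a comparison kept its direction, or a count stayed within 1.5 times, and in 197 cases a single gene kept its direction and its side of the threshold. Calls were gained in 11 cases, 6 for the rule gene Aqp6, which are not read as a test, 3 for Iapp and 2 for Hbb-bs. The fits without the sex covariate or with the block at 10 members, the members with a transporter UMI and the counts of members were chosen after seeing the data. For the genes called in het or by labelled sex, leaving out single libraries was not run at 10 members. It was run only at the main minimum of members, where the fits held at most 1 het and 1 female-labelled library. Such fits cannot separate a group from its single library, so their counts of genes called are not given. Comparing Slc26a4 with Aqp6 members could not be run at 10 or 5 per side. With few members per library and 2 null libraries, small differences were not detectable at this depth.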
